A study of Homo sapiens with 8 samples.

Results

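The peaks described here are the wide CTCF peaks of control HT1080 cells, that is, the peaks of the control list that were at least 500 bp from end to end. They numbered 3293 of 47470 control peaks, or 6.94% (95% interval 6.71 to 7.17), and were chosen by their width alone, which the file gives in steps of 50 bp. HT1080 is a human fibrosarcoma line of connective tissue origin labelled as ras positive. The cells were left untreated or were exposed to 3 µM of the curaxin CBL0137, a DNA-binding anticancer compound, for 6 h, and chromatin was immunoprecipitated with an anti-CTCF antibody. For each condition 2 ChIP and 2 input libraries were sequenced, 8 in all, from 1 cell line. Each condition has 1 peak list, built by the authors from both replicates together, so that no value per replicate and no error between replicates could be given for any number below. The 95% intervals are Wilson intervals over peaks, which cover counting error only, and no p-value was computed because peaks are not replicates. The peak lists carry no read depth per library.

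CTCF is a zinc-finger protein that binds a long, asymmetric DNA motif, and its bound sites arrest the cohesin complex as it extrudes chromatin loops, so that loop anchors and domain borders often lie at CTCF sites whose motifs face each other. A CTCF peak in ChIP-seq is normally about as wide as the sheared fragments around a single bound motif. A peak that is much wider can hold several bound motifs close together, a tandem repeat of the motif, or a stretch of open chromatin at an active promoter.

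The sequences of 12 wide peaks are printed first, to set peaks with many, few and no motif matches side by side. All are hg19 (GRCh37) plus-strand sequence, read 5′ to 3′ in lower case. Capitals mark matches to the 12-base CTCF core CCANNAGNNGGC on either strand, where each N allowed 2 of the 4 bases and at most 1 base of the whole could mismatch. A match is a description of the letters and not a measured binding site. Where a peak is too long to print, the stretch with the most matches or the bases around each match are given, and stretches in untranslated regions were left out.

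The first pair comes from the wide peaks with the most matches, which lay 3.70 kb from an immunoglobulin V pseudogene on chromosome 15 and 0.123 kb from the heavy-chain pseudogene IGHVIII-67-3 on chromosome 14. The third, in an intron of WWC3 on chromosome X, was chosen after its values were seen because it holds 5 matches.
near AC010760.1, 8 of 23 matches, chr15:22461841-22462140: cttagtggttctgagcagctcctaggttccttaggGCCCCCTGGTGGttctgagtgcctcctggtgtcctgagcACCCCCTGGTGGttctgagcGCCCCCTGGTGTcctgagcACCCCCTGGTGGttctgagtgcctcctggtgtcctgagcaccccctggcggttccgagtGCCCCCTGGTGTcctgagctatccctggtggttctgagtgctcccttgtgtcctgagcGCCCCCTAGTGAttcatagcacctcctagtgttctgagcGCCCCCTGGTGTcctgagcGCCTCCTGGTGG
near IGHVIII-67-3, 8 of 19 matches, chr14:107147837-107148136: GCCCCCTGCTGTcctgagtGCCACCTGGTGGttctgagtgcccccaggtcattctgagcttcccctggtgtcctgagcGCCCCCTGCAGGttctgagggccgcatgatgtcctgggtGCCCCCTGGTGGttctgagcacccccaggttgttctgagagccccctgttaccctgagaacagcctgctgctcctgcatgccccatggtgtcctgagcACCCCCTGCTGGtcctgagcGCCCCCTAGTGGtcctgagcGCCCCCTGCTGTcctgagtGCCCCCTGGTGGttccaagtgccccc
WWC3, 5 matches, chrX:10087568-10087866: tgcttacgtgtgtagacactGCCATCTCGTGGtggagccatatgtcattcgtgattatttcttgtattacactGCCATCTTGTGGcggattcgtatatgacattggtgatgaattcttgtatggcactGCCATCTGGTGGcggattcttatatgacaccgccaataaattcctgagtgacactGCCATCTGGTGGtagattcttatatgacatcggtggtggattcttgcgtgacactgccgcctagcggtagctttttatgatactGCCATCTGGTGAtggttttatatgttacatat

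The next 4 peaks hold 2 or 3 separate matches. They lay near RBFOX2, in RAB11FIP4, in RHOF and near KRT17.
near RBFOX2, both matches, chr22:36462098-36462380: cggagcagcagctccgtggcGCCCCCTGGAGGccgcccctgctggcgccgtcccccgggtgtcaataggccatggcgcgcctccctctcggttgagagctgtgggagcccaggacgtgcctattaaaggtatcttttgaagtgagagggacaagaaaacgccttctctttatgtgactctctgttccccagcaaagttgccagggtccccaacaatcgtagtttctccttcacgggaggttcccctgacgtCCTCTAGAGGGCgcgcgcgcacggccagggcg
RAB11FIP4, 2 of 3 matches, chr17:29852544-29852843: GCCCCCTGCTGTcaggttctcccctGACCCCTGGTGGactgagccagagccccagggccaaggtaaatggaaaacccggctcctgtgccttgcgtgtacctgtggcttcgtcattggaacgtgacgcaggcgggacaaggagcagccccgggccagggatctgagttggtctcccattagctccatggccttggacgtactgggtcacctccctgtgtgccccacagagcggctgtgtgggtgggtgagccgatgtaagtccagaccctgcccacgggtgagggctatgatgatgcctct
RHOF, plus-strand match of 2 matches, chr12:122232978-122233037: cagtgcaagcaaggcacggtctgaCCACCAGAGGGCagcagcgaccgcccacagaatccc
near KRT17, minus-strand match, chr17:39804293-39804352: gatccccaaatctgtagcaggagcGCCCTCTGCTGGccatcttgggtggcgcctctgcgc
near KRT17, plus-strand match, chr17:39805037-39805096: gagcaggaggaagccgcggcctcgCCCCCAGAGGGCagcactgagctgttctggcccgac

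The last 5 are wide peaks that had no treated peak, or only a short one. The stretch from RCOR1, which holds no match, is the middle of its peak.
LINC01844, only match, chr5:142096668-142096727: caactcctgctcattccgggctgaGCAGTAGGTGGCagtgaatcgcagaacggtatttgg
GNGT1, left match, chr7:93251480-93251539: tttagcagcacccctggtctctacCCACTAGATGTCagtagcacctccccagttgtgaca
GNGT1, right match, chr7:93251866-93251925: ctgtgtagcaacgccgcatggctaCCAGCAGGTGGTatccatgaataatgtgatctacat
OSBP2, only match, chr22:31151546-31151605: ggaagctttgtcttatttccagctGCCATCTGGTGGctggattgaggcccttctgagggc
DGKG, only match, chr3:185959764-185959823: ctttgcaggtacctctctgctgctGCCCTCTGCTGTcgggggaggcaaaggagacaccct
RCOR1, no match, chr14:103059876-103059975: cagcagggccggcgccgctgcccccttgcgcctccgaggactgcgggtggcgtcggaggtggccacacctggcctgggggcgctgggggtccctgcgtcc

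Most of the wide peaks sat just above the limit of 500 bp. Their median width was 550 bp, with quartiles of 500 and 600 bp, and the widest reached 1450 bp. There were 1322 peaks of exactly 500 bp inside the limit and 2821 of 450 bp outside it. Of these, 85.1% (83.1 to 86.9) and 88.9% (87.7 to 90.0) remained after treatment, and 96.0% and 95.5% overlapped a treated peak. A control peak had remained when it shared more than 50% of the larger peak with a treated peak.

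Among the wide peaks 2733 of 3293 remained, or 83.0% (81.7 to 84.2), against 49.3% of all control peaks and 46.8% of control peaks narrower than 500 bp. An overlap of any length with a treated peak was found for 3186 (96.8%, 96.1 to 97.3), against 57.1% of all control peaks. When the treated peaks were shifted by 10 kb, 2.40% of the wide peaks still met one. Thus 107 wide peaks (3.25%) had no treated peak at all, against 42.9% of all control peaks. Another 453 met a treated peak but failed the 50% rule. They were 14.2% of the overlapping wide peaks, near the 13.6% of all overlapping control peaks.

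The authors' direct comparison of the conditions gave lists of sites higher in control or in treated cells, of which only the positions were used here. A site higher in control cells overlapped 1160 wide peaks (35.2%, 33.6 to 36.9), against 51.2% of all control peaks. The lower share was not particular to wide peaks, since it was 36.2% at 400 to 450 bp and 30.5% at 450 bp alone. Within the wide peaks it was 31.7% at 500 bp, 32.4% at 550 bp and 32.1% at 600 to 650 bp. In wider ones it was higher, with 51.3% at 700 to 850 bp and 57.6% at 900 to 1450 bp. An overlap of any length was counted, so a longer peak can meet a site more often by its length alone. A site higher in treated cells overlapped 67 wide peaks (2.03%), against 2.41% of all control peaks. The differential lists come from the same libraries as the peak lists and are therefore not independent of them. Of the 107 wide peaks without a treated peak, 106 overlapped a site higher in control cells. So did 398 of the 453 that failed the rule with an overlap (87.9%) and 656 of the 2733 that remained.

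The share that remained was lower in the widest peaks, while the share with any overlap was not. It was 85.1% at 500 bp and 89.6% (87.3 to 91.6) at 550 bp, or 86.8% for both together, 84.0% at 600 to 650 bp, 72.4% at 700 to 850 bp and 48.6% at 900 to 1450 bp. Any overlap was found for 96.5, 96.7, 98.1 and 97.9% of the same peaks. The rule divides by the larger peak, so a wide peak fails it whenever the treated peak is at most 50% as wide. In that state were 449 of the 3186 overlapping wide peaks (14.1%), against 11.8% of all overlapping control peaks.

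**Figure D1:**
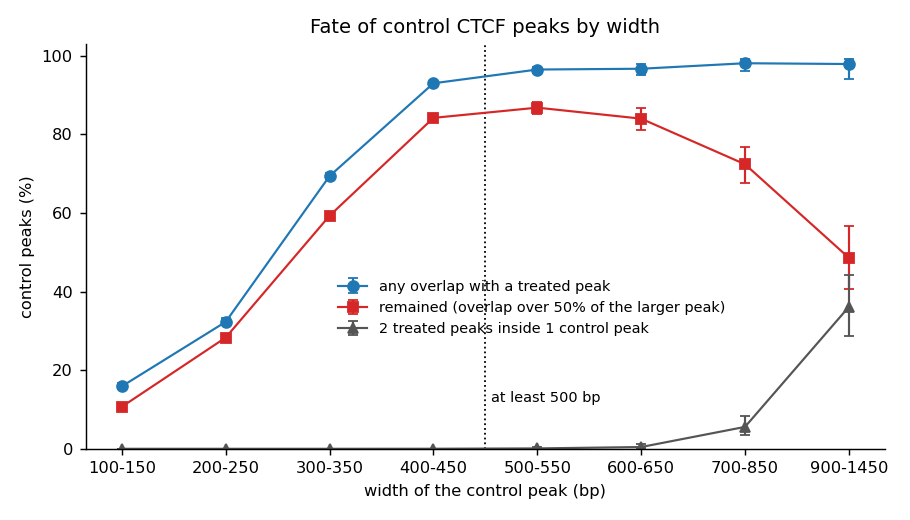
Share of control CTCF peaks (%) by width of the control peak (bp), with Wilson 95% intervals. Points show any overlap with a treated peak, peaks that remained, and peaks that held 2 treated peaks; right of the dotted line, any overlap stays at 96.5% or above while the remained share falls from 86.8 to 48.6%.

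Some of these peaks met 2 treated peaks. This was so for 77 wide peaks (2.34%), against 0.164% of all control peaks, and 73 of the 77 are among the 449 just counted. They were all but 1 of the 78 such peaks in the control list. A short control peak has little room for 2 treated peaks, so this contrast follows in part from the choice by width. The share with 2 treated peaks was 0.0117% at 400 to 450 bp, 0.0946% at 500 to 550 bp and 36.1% at 900 to 1450 bp. On chromosomes 1 to 22 and X there were 76 of the 77, with a median control width of 950 bp and a gap between the treated peaks of 200 to 650 bp (median 250). Of these, 34 held 2 or more consensus matches, and in 32 the matches fell into different treated peaks. Only 3 of the 76 remained by the 50% rule, and 51 of all 77 overlapped a site higher in control cells. The peak in RHOF, a small GTPase gene, is an example without such a site. Its 1450 bp (chr12:122231901-122233350) became treated peaks of 550 and 500 bp, each with 1 of the 2 matches, and no differential site lay there, yet it did not remain by the rule. The 1200-bp peak in FBRSL1 likewise became 550 and 400 bp, with all 3 matches covered and a site higher in treated cells.

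Where a treated peak overlapped, it was mostly narrower. The treated peak was narrower for 2706 of 3186 wide peaks (84.9%), of the same width for 311 (9.76%) and wider for 169 (5.30%). Over all overlapping control peaks 62.4% were narrower and 15.0% wider. The median difference, treated minus control, was -100 bp, with quartiles of -200 and -50 bp, and 1036 treated peaks (32.5%) still reached 500 bp. These peaks were chosen for a large width in control cells, so a smaller width in the treated list follows in part from the choice. Seen from the other side, the treated list held 1436 peaks of at least 500 bp (4.86% of 29558), and 1429 of them overlapped a control peak. That control peak was wider in 39.0%, of the same width in 21.8% and narrower in 39.2%, with a median difference of 0 bp. Of the 2625 wide peaks that were narrower and met 1 treated peak, 51.4% had lost bases at both ends, 42.4% at 1 end with the other end unchanged, and 6.21% at 1 end with a gain at the other.

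**Figure D2:**
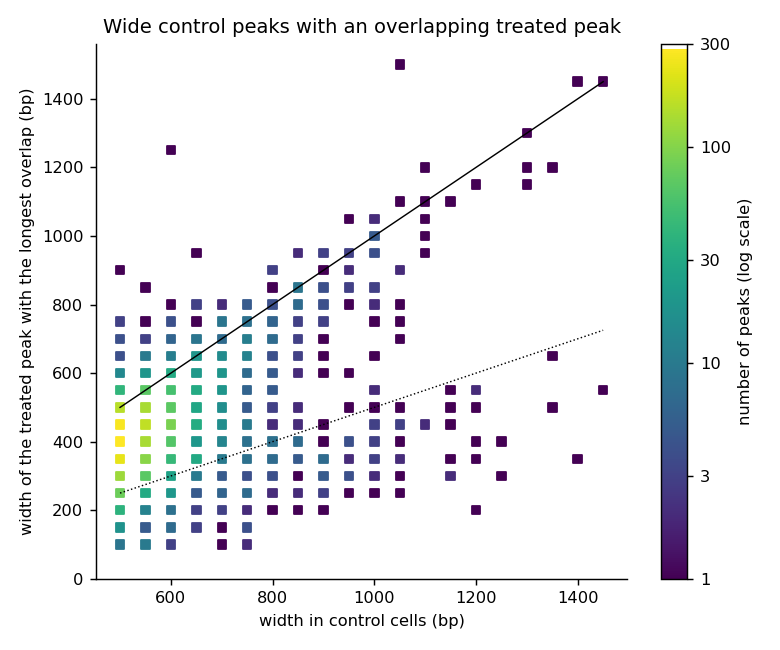
Width (bp) of each wide control peak and of the treated peak with the longest overlap, for the 3186 wide peaks with an overlap. Squares are coloured by the number of peaks (log scale), the solid line marks equal width and the dotted line 50% of the control width; 84.9% of the peaks lie below the solid line.

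The wide peaks were stronger than all narrower peaks as a group, but not than those just under the limit. Their fold enrichment over input, a ratio computed by the authors, had a median of 36.5 (quartiles 29.6 and 44.7) against 28.0 (19.2 and 37.9) for narrower control peaks. It was 37.6 at 400 to 450 bp, and within the wide peaks 36.9 at 500 to 550 bp, 36.1 at 600 to 650 bp, 35.6 at 700 to 850 bp and 35.2 at 900 to 1450 bp. Of the 100 control peaks with the smallest p-value 68 were wide. The share of wide peaks ranged from 0.232% in the lowest of 10 groups of equal size by fold enrichment to 12.4% in the ninth and 11.2% in the highest. Within the same fold group a wide peak remained more often than a narrower one in every group. At a fold of 21.6 to 25.1, for example, 64.6% of 226 wide and 33.1% of 4521 narrower peaks remained, and above 48.5 it was 97.0% of 533 and 87.2% of 4214. Weighted by the wide peaks, the difference was 19.2 percentage points (18.0 to 20.5), and 25.5 points for any overlap. With 10 groups by p-value in place of fold enrichment it was 5.61 points, and with an overlap over 75% of the larger peak 4.55 points. The narrower peaks in these comparisons span 100 to 450 bp. Of those of 100 to 150 bp 10.7% remained, and of those of 400 to 450 bp 84.2%, against 83.0% of the wide peaks. The difference is thus from narrower peaks of all widths together and not from those just under the limit.

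**Figure D3:**
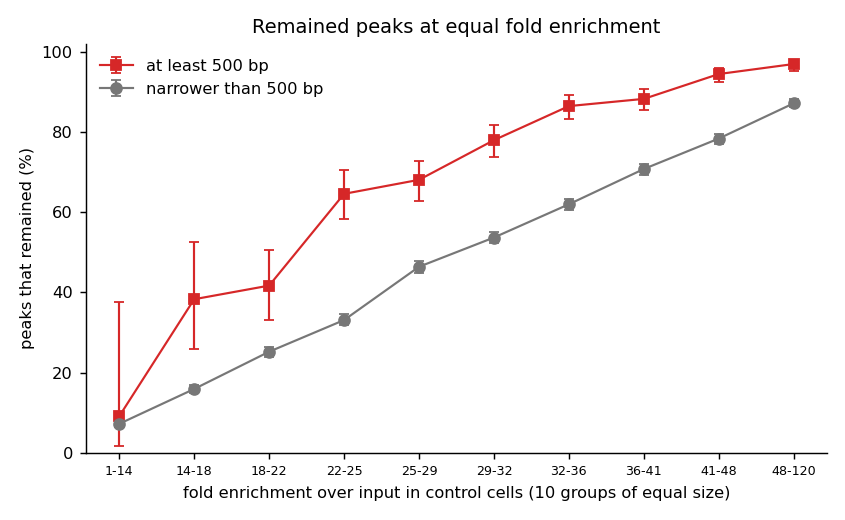
Share of control peaks that remained (%) in 10 groups of equal size by control fold enrichment over input, for peaks of at least 500 bp and narrower ones, with Wilson 95% intervals. The wide peaks lie above the others in every group, with intervals that overlap in the lowest group, where only 11 peaks were wide.

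The sequence measures cover the 3287 wide peaks on chromosomes 1 to 22 and X. At least 1 consensus match was found in 2419 of them (73.6%), against 48.6% of all control peaks, and 2 or more in 417 (12.7%, 11.6 to 13.9), against 2.12%. A longer stretch holds more matches by its length alone, and per 100 bp the wide peaks held 0.153 matches and the narrower ones 0.172. Windows of the same width 10 kb away held 0.0560 matches each, against 0.899 in the wide peaks. For narrower peaks these values were 0.0197 and 0.482, so more matches than nearby were not particular to wide peaks. Of the peaks of 450 bp, 69.9% held at least 1 match and 3.90% held 2 or more. In the 375 wide peaks with exactly 2 matches, the distance between them ranged from 12 to 790 bp with a median of 211 bp. Both matches had the same strand in 53.6%, faced each other in 24.8% and faced away in 21.6%.

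When a wide peak became narrower, the matches mostly stayed inside. In the wide peaks with any overlap the treated peaks covered 74.3% of the bases and 95.6% of the 2904 matches (94.8 to 96.3). In those that became narrower it was 70.2% of the bases and 94.6% of 2352 matches, and 85.5% of these matches lay in the central 50% of the control width. Matches take up few of the bases of a wide peak, and most lay in its central part. A loss of bases at the ends leaves such matches inside by their position alone. Whether the matches played a part was not tested. With exactly 1 match, 97.4% of the matches of narrowed peaks were covered, and with 2 or more matches 87.7%.

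No match was found in 868 wide peaks (26.4%). They remained in 73.5% of cases, against 87.7% of the 2002 with exactly 1 match and 80.5% of the 375 with exactly 2. A site higher in control cells overlapped 47.6% of those without a match and 29.0% of those with exactly 1. Of the 107 wide peaks without a treated peak, 63 (58.9%) held no match. Their part in the fate was not tested. Peaks without a match lay at promoters in 28.3% of cases, against 13.5% of those with exactly 1.

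**Figure D4:**
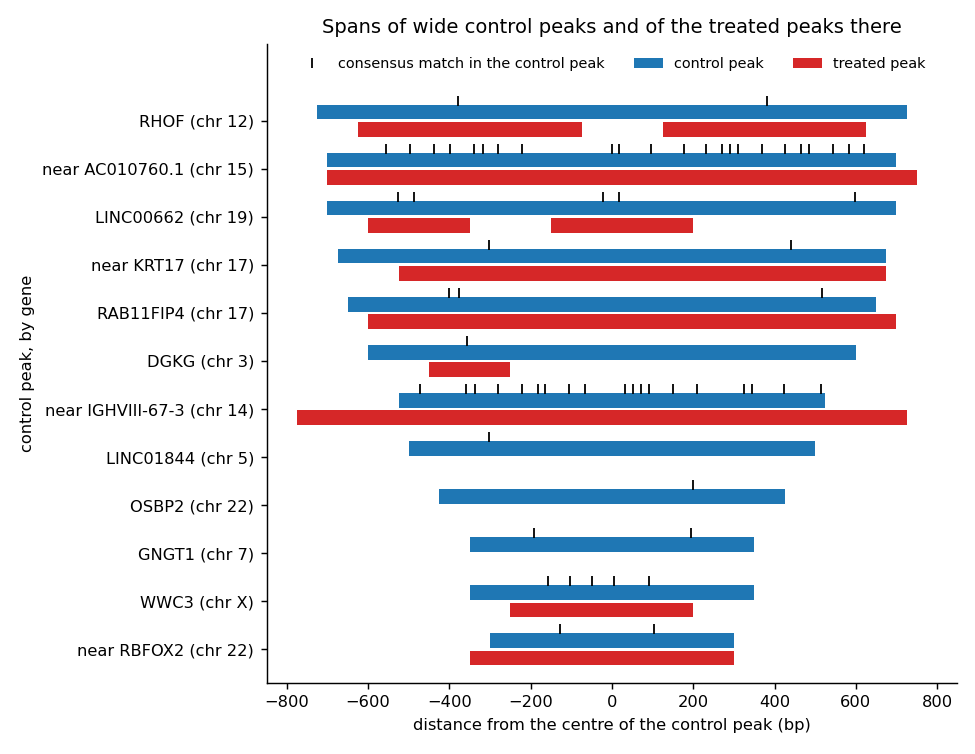
Spans of 12 wide control peaks and of the treated peaks there, as distance (bp) from the centre of the control peak, with ticks at consensus matches. The RHOF and LINC00662 peaks each hold 2 treated peaks, the DGKG peak keeps a treated peak only at its match, and LINC01844, OSBP2 and GNGT1 have none.

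The widest peaks had different fates. The 1450-bp peak at the start of ABCA2, which encodes a lipid transporter, and in LINC02908 (chr9:139922701-139924150) was also 1450 bp in treated cells, although 2 sites higher in control cells lay in it. The 1350-bp peak 23.5 kb from the keratin gene KRT17 became 1200 bp with no differential site, and the 1300-bp peak in RAB11FIP4, an effector of Rab11 in endosome recycling, stayed at 1300 bp, with a site higher in control cells. The 1300-bp peaks near SLURP1, a secreted Ly6 protein gene, and at LRIG2 became 1200 and 1150 bp, with no differential site near SLURP1 and 2 sites higher in control cells at LRIG2. Others shrank strongly: the 1350-bp peak near the casein kinase gene CSNK1G2 became 650 bp and kept 1 of its 2 matches. The 1250-bp peaks in TMEM63C and in LGR6, an R-spondin receptor gene, became 300 plus 100 bp and 400 plus 350 bp. The largest loss on a single treated peak was in DGKG, a diacylglycerol kinase gene, where 1200 bp became 200 bp around the printed match and 2 sites higher in control cells lay. The longest treated peaks were 1050, 950, 900 and 850 bp shorter than the control peak in LINC00662, TMEM63C, RHOF and both LGR6 and LINC02716, and each of these held 2 treated peaks.

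The widest peaks without any treated peak lay at varied genes, and each of the 7 described here overlapped a site higher in control cells. They were 1000 bp in LINC01844 (19.4 kb from the growth factor gene FGF1), 950 bp near SLC44A3, 900 bp near the circadian clock gene BMAL1 (93.1 kb away, no match) and 850 bp in the oxysterol-binding protein gene OSBP2. Those of 800 bp near ANKRD55 and of 700 bp near SOCS3, an inhibitor of cytokine signalling, held no match, and the 700-bp peak in GNGT1, a transducin subunit gene, held 2. Control fold enrichment in these 7 ran from 18.1 near SLC44A3 to 37.8 in LINC01844.

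The largest gains were at varied places. NDUFA4L2, a mitochondrial protein gene, had the largest, from 600 to 1250 bp at 2.43 kb from the start site. TMEM170A went from 500 to 900 bp, RNF215 from 550 to 850 bp, NADK2, a mitochondrial NAD kinase gene, from 650 to 950 bp. No differential site lay in any of these 4. The gain at IGHVIII-67-3 was from 1050 to 1500 bp, with a site higher in treated cells. Then 3 peaks were tied at 250 bp, among them those at CDK9, the kinase of the elongation factor P-TEFb, without a differential site, and at IGHVIII-67-4, with a site higher in treated cells, both from 500 to 750 bp.

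The 6 wide peaks with the highest fold enrichment all remained. They lay at CLPB (99.3, a mitochondrial chaperone gene), CCL1 (88.9, a chemokine gene), RBFOX2 (84.0, a splicing factor gene), SH3GL1 (83.8), GCM1 (82.5) and KCTD15 (81.5). Only at CCL1 and GCM1 did a site higher in control cells overlap, with widths of 500 to 300 bp and 500 to 400 bp, and neither peak held a match. On chromosomes 1 to 22 and X, the 4 with the lowest enrichment, in LINC00486 (3.35), RCOR1 (10.4), near BTG2 (11.1) and in LINC02236 (11.4), did not remain.

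The wide peaks with 5 or more matches were described as a group after their values were seen. Of these 11 peaks, 10 remained, 8 were wider in treated cells and 9 overlapped a site higher in treated cells. The matches lay on 1 strand in every member, mostly as closely spaced tandem arrays. They were sparser in the LINC00662 peak, with a median spacing of 252 bp (39 to 580), and near IGHVIII-47-1, with 134 bp (77 to 213). On chromosome 14 there were 6 of the 11 peaks, next to heavy-chain V pseudogenes. Among these were IGHVIII-38-1 (600 to 750 bp, 12 matches), IGHV3-65 (750 to 800 bp, 11 matches) and IGHVIII-26-1 (600 to 650 bp, 11 matches). The peak on chromosome 15 (chr15:22460951-22462350, 1400 to 1450 bp) held 23 matches with a median spacing of 47 bp and 10 different 12-base words among them. Another lay 10.3 kb from IGHV3OR16-13 on chromosome 16, with 6 matches and 500 to 600 bp. In all, 8 of the 11 were within 100 kb of an annotated immunoglobulin V gene or pseudogene. Across the heavy-chain V region of chromosome 14 (chr14:106405611-107288019) 38 control peaks were called and 7 were wide. All 7 remained and overlapped a site higher in treated cells, and 6 were wider there. The 3 members elsewhere were in LINC01191 on chromosome 2 (700 bp in both lists, site higher in treated cells), in WWC3 (700 to 450 bp, 2 sites higher in control cells) and in LINC00662 (1400 to 350 bp, 2 sites higher in control cells). The authors kept only uniquely mapped reads, and how mapping within such arrays bears on these peaks was not tested.

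Wide peaks lay in GC-richer sequence and closer to genes than narrower peaks as a group. Their median GC content was 54.5% against 46.7%, and the observed over expected CpG ratio 0.324 against 0.219. The median distance to the nearest protein-coding start site was 11.5 kb against 26.1 kb, and to the next control peak 8.35 kb against 14.3 kb. Peaks of 450 bp, just under the limit, lay between, with 50.2%, 0.290, 16.4 kb and 10.1 kb. These traits thus did not begin at the limit. The centre was within 1 kb of a protein-coding start site, taken here over all transcripts, in 575 wide peaks (17.5%, 16.2 to 18.8). This was so in 9.79% of all control peaks and in 12.8% of those of 450 bp. A start site was inside 331 wide peaks (10.1%), against 3.88% of all control peaks. The centre was in an intron of a protein-coding gene in 42.9% and intergenic in 36.4%, near the 45.7 and 35.3% of all control peaks. It was in an untranslated region in 6.91% and in coding sequence in 4.14%, against 4.11 and 2.80% of all control peaks.

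The promoter peaks kept their width more often than the others. Of 575 wide peaks at promoters 86.4% remained, and where a treated peak overlapped it was narrower in 73.1% and wider in 9.98%. Away from promoters 82.4% of 2712 remained, 87.5% were narrower and 4.31% wider. A treated peak of at least 500 bp was found for 50.3% of overlapping promoter peaks and 28.7% of the others. This difference was not tested across samples, since the lists analysed pool the replicates. Among control peaks narrower than 500 bp 43.8% at promoters and 61.4% elsewhere were narrower after treatment.

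Chromosomes differed widely in their share of wide peaks. It was lowest on chromosome X, with 12 of 1388 (0.865%, 0.495 to 1.51), followed by chromosomes 4 (1.51%), 18 (2.12%), 6 (2.60%) and 13 (2.82%). It was highest on chromosomes 19 (12.9%), 17 (12.8%) and 20 (12.6%), whose intervals overlap. GC content was set beside this order, and its part in it was not tested. If each peak had the share of all peaks with like GC content in the surrounding 100 kb, in 10 groups, chromosome X would have 5.24%, chromosome 4 4.41% and chromosome 22 11.7% in place of its 6.08% (4.63 to 7.95). Chromosomes 3 and 5 would have 5.74 and 5.57% and had 9.63% (334 of 3468) and 258 of 2868. With like fold enrichment as well, chromosomes X, 4, 22, 3 and 5 would have 6.28, 4.64, 12.4, 4.94 and 4.90%. The treated list showed nearly the same order, with 0.409% on chromosome X, 12 of 1089 on chromosome 4 and 8.91, 8.95 and 8.09% on chromosomes 19, 17 and 20. Across the 23 chromosomes, which share libraries and peak caller, Pearson's r was 0.98 between the lists (Spearman's coefficient 0.97, and r 0.97 without the farthest pair of chromosomes), 0.61 with surrounding GC content (Spearman's 0.51, r 0.62) and -0.17 with median fold enrichment (Spearman's -0.29, r -0.31). The lists share most of their sites, so the likeness between them describes the places and is not independent evidence.

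**Figure D5:**
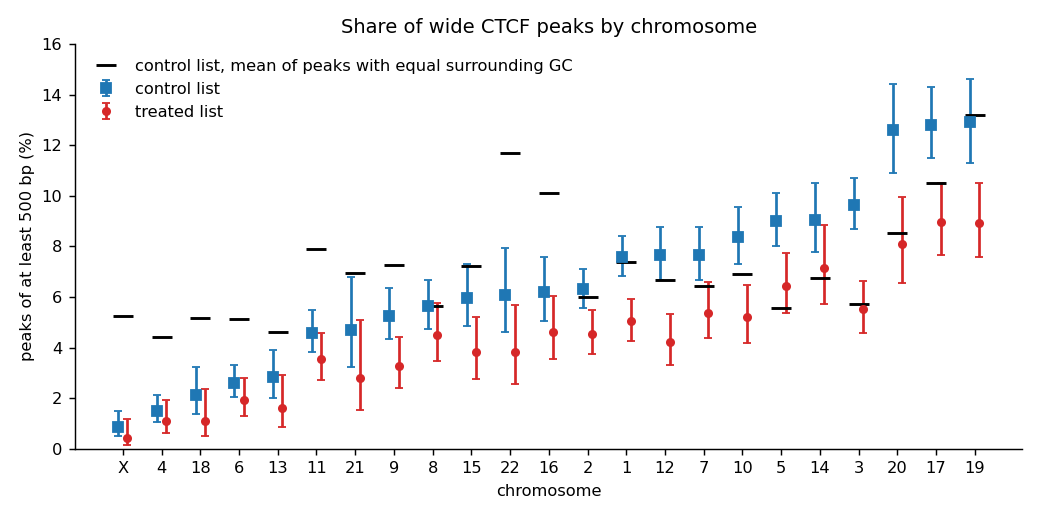
Share of peaks of at least 500 bp (%) on each chromosome in the control list and in the treated list, with Wilson 95% intervals, ordered by the control share. Black bars give the control share for peaks of equal surrounding GC content; the intervals of chromosomes X, 4, 18, 6, 13, 11, 21, 9, 22 and 16 lie below their bar and those of chromosomes 7, 10, 5, 14, 3, 20 and 17 above it.

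Within chromosomes the share also varied. In windows of 20 Mb with at least 60 control peaks, it reached 22 of 100 at the end of chromosome 20 (from 60 Mb on), 19.6% from 140 Mb on chromosome 8, 19.3% from 100 Mb on chromosome 14 and 17.9% in the first 20 Mb of chromosome 5. In that last window the surrounding GC content had a median of 42.7% and the fold enrichment a median of 20.7. No wide peak was called in 4 windows, on chromosomes 4 (100 to 140 Mb) and X (80 to 100 and 120 to 140 Mb), which held 234, 170, 77 and 192 control peaks.

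Of the wide peaks, 1744 (53.1%) lay in 607 runs whose neighbours were under 100 kb apart. No such share is given here for other control peaks, whose median gap to the next control peak was 14.3 kb. The runs are therefore not shown to be particular to wide peaks. The run with the most wide peaks (chr1:200940951-201529250) held 20 wide among 41 control peaks, from KIF21B to NAV1, and passed the troponin genes TNNT2 and TNNI1. Of its wide peaks 18 remained, 19 had an overlap and 10 met a treated peak of at least 500 bp. A run on chromosome 17 (chr17:47938451-48439800) held 14 wide among 32 peaks from TAC4 to XYLT2, including COL1A1, and all 14 remained. A run on chromosome 7 (chr7:150475601-151146150) held 14 among 36 around NOS3, which encodes endothelial nitric oxide synthase, and 13 remained. The 6 wide peaks off the main chromosomes lay on unplaced contigs, 4 of the 7 control peaks of chrUn_gl000220 (550, 600, 900 and 1350 bp) and 2 of the 3 of chr17_gl000205_random (500 and 900 bp), and had no sequence here.

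Gene groups were read against all protein-coding genes, of which 3076 of 20090 (15.3%) had a wide peak within 10 kb. These were 2514 wide peaks, of which 2112 remained, and the few peaks of each group are to be read against that. A control peak of any width was near 15085 of the 20090 genes. It was near 39 collagen and matrix genes, 27 of CTCF and related factors and 40 oncogenes and cell-cycle genes. For HOX, protocadherin and imprinted genes it was 34, 51 and 37. Genes close together can share a peak, so the number of peaks stands beside each count. Of 40 collagen and matrix genes 13 (32.5%) had one, by 15 peaks of which 13 remained. At COL1A1, the main collagen of connective tissue, the 700-bp peak in the gene (chr17:48277801-48278500, 2 matches on the plus strand) was 650 bp in treated cells, with no differential site. The 1000-bp peak 16.9 kb from the start of MMP14, a membrane collagenase gene, became 800 bp, and the 550-bp peak at LAMA5, a laminin gene, became 450 bp, each with a site higher in control cells.

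Of 30 genes of CTCF, cohesin, condensin, the FACT complex and related factors, 8 (26.7%) had a wide peak, by 11 peaks that all remained. These were near CTCF itself, MAU2 (a cohesin loader), PDS5A and STAG1 (cohesin regulators), NCAPG2 (condensin), TOP1, TOP2B and YY1. At the start of PDS5A 650 bp became 350 bp with a site higher in control cells, while in MAU2 550 bp stayed at 550 bp. Of 45 oncogenes and cell-cycle genes 11 (24.4%) had one, by 13 peaks of which 12 remained. The peak in CDK6, a cell-cycle kinase gene, went from 650 to 400 bp, and that near FGFR3, a growth factor receptor gene, from 700 to 750 bp.

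Of 39 HOX genes, which pattern the body axis, 12 (30.8%) were near a wide peak, but by only 4 peaks of which 3 remained. In HOXD3 700 bp became 650 bp, in HOXA3 500 became 400 bp, and in HOXB3 a 600-bp peak became 400 bp and a 500-bp peak 200 bp, the last with a site higher in control cells. None of the 4 held a match. A single 600-bp peak (chr5:140891801-140892400) at the shared end of the gamma protocadherin genes was counted for 22 of 53 protocadherin genes (41.5%), and was 650 bp in treated cells. Of 41 imprinted genes 5 (12.2%) had one, by 6 peaks that all remained, among them 850 bp in IGF2 in both lists, with a site higher in control cells, and 850 to 700 bp at PHLDA2. Of 51 replication-dependent histone genes, 2 (3.92%) shared 1 wide peak, in H2BC6, which went from 500 to 250 bp and did not remain. Only 23 of the 51 were near a control peak of any width, so this low share is not particular to wide peaks.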

How the data were processed

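CTCF ChIP-seq of control and CBL0137-treated HT1080 cells was analysed from 4 peak lists. Per the methods, the authors mapped reads to hg19 with Bowtie2 2.2.3, kept uniquely mapped reads, removed duplicates with SAMtools 1.5 and called peaks with PePr (p-value cutoff 0.05, window 100 bp). The methods describe single-end reads, the labels paired-end reads. Both replicates were pooled in each list. The deposited lists hold, for each peak, a fold enrichment over input (a ratio computed by the authors) and a p-value and FDR given by the authors. The deposited score column of the lists was not used. The lists of the authors' direct comparison also hold fold and p-values between conditions, which were not used. The largest FDR of the deposited lists was 0.00132 in control and 0.00221 in treated cells.

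A peak remained by the overlap rule of the study's methods. Peaks were intersected, and the consensus, GC content and GENCODE v44lift37 genes were read on GRCh37, with Python 3.11.15 and pysam 0.24.0, tables were handled with pandas 2.3.3, numpy 2.4.6 and scipy 1.17.1, and plots made with matplotlib 3.10.9. Routines were tested on simulated data. The members and gene lists were chosen with earlier results of these data known. Regions were named by rank (width, loss or gain of width, fold enrichment, matches, no overlap, listed genes, runs with most wide peaks), and 1 region so named is not reported here. Other width limits, overlap rules, FDR limits, mismatch limits and promoter distances were tried. Signal tracks and reads were not analysed here.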

Additional observations from a re-analysis of the deposited data

How the results depend on the processing

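No paired analysis was possible because each list analysed here pools both replicates. Signal per replicate was not analysed here, and leaving out a replicate or blocking on its number was not run for the same reason. Of 54 alternative values, 24 stayed within the interval or limit of the value reported, 30 moved and 0 reversed. At least 450 bp gave 6114 peaks, of which 85.7% remained, 79.7% of overlapping ones were narrower, 33.0% met a site higher in control cells, 8.63% held 2 or more matches and 15.3% were at promoters, with 23.5 points more remained than other peaks at equal fold. At least 600 bp gave 1179 peaks, with 76.2%, 86.1%, 41.1%, 20.7%, 19.2% and 12.4 points. The remained share was 96.8% by any overlap, 49.2% over 75% of the larger peak, 86.7% at 50% or more and 93.9% with centres at most 200 bp apart. The difference at equal fold was 25.5, 4.55 and 22.6 points for any overlap, 75% and centres. It was 15.7 points with control FDR at most 1e-05, 27.7 with treated FDR at most 1e-05, which left 92.5% with any overlap, and 5.61 in groups by p-value. Sites higher in control cells covered over 50% of 16.2% of wide peaks. With no mismatch 0.669% held 2 or more matches, and with at most 2 mismatches 58.8%. Promoters made up 10.1% with the start site inside the peak and 25.6% within 2.5 kb. The cause of these shifts was not tested.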

Other observations

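The lists carry no value per replicate, so every share rests on 1 pooled list per condition, and its spread between cultures is unknown. Width comes in steps of 50 bp from windows of 100 bp. Peaks near each other are not independent, so the intervals over peaks are too narrow by an unknown amount.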
